A study of Mus musculus with 17 samples.

Results

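The genes described here are 10 atrophy and FOXO target genes, picked by symbol: Fbxo32, Trim63, Pdk4, Sesn1, Sesn3, Ccng2, Cited2, Irs2, Bnip3 and Gabarapl1. All 10 were present among the 15062 genes measured. Expression was measured by RNA sequencing in C2C12 cells, which are muscle precursor cells of the mouse that fuse into myotubes when serum is withdrawn. Here they were grown in medium with fetal bovine serum, and the labels state no switch to differentiation medium. The lines carried pMSCV (the empty retroviral vector), SRF (serum response factor, which binds DNA and drives genes of the cytoskeleton and of muscle), SRF-FOXO1, SRF-ICA1L, SRF-PDGFRB or SRF-RELA. Each line had 3 libraries except SRF-PDGFRB, which had 2, so 17 libraries were compared. The last 4 lines carry fusions of SRF, in a study of fusion oncogenes of myoid soft tissue tumours, with partners named after a forkhead factor (FOXO1), a protein of the islet autoantigen family (ICA1L), a receptor tyrosine kinase (PDGFRB) and a subunit of NF-kappaB (RELA). The labels do not say which stretch of each partner the fusions hold, whether a line is a single clone, or whether replicates came from separate cultures. Adjusted p-values therefore measure only the spread between these libraries, which may be technical. The RNA came from whole cultures, where fewer cells of a type and less RNA per cell cannot be told apart.

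FOXO proteins are forkhead transcription factors that sit at the end of insulin and growth factor signalling. When that signalling is strong, the kinase AKT phosphorylates them and they leave the nucleus. When it weakens, as in fasting, disuse or glucocorticoid excess, they enter the nucleus and switch on genes for protein breakdown, autophagy, stress resistance and the change of fuel from glucose to fat. In skeletal muscle this programme accompanies loss of muscle mass, which is why several of its genes are used as atrophy markers.

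The sequence just before the transcription start was read for 9 of the 10 genes (10 start sites, RefSeq, GRCm38.p6), because FOXO factors are known to bind sites of 2 kinds near their targets. Both were chosen after the sequences had been seen and were searched on both strands of the 250 bases before each start: the forkhead consensus TGTTTAC and the insulin response sequence CAAAACAA, which do not overlap each other. TGTTTAC was present in 1 window, that of Trim63, and in 3.17% of all 32851 windows of this length. CAAAACAA was present in the windows of Ccng2 and Irs2 and in 2.21% of all windows. The CArG box, the sequence that SRF binds, was in none of the members' windows and in 1.47% of all windows. The 3 sequences with a match are shown with the match in capitals, 5′ to 3′ on the strand of the gene. The Trim63 window is chr4:134314870-134315119 on the plus strand, with the match 194 to 188 bases before the start. The Irs2 window is chr8:11008930-11009179 on the minus strand, where the match lies 38 to 31 bases before the start and reads as TTGTTTTG because it is on the other strand. For Ccng2 only the 30 bases next to the start are shown (chr5:93267543-93267572, plus strand), with the match 16 to 9 bases before it. The annotated Ccng2 gene begins earlier, at chr5:93267257, so these bases lie inside it. The windows of Sesn1 and Sesn3, which hold no match, likewise lie inside their annotated genes. A match describes the letters only, and binding was not measured.
Trim63: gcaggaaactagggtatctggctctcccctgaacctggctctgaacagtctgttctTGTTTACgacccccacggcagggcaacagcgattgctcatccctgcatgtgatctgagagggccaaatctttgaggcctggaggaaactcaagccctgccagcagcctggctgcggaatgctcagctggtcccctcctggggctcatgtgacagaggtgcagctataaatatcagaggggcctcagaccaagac
Irs2: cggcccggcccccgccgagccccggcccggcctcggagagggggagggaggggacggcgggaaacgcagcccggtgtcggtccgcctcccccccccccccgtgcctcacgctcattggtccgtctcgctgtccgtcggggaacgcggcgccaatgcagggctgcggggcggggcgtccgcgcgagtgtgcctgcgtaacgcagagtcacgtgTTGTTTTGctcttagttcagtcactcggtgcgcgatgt
Ccng2: gggcgtcgcagactCAAAACAAaaacaagg

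Library totals lay between 20901442 and 23543734 counts, so counting error was small for every member except Trim63. Levels are given in CPM, the count of a gene divided by its library's total and multiplied up to a common size, with TMM (trimmed mean of M-values) factors applied to the totals. All 6 myoblast markers listed (Myod1, Myf5, Cdh15, Des, Itga7 and Chrna1) were measured. Their summed level was 1676 to 2143 CPM in pMSCV and 824 to 1513 CPM in SRF. Of the fusion lines, SRF-ICA1L held 540 to 1254 CPM, SRF-RELA 439 to 810 CPM and SRF-FOXO1 259 to 335 CPM. The SRF-PDGFRB libraries stood far apart, at 247 CPM in 1 and 2390 CPM in the other, and their summed muscle differentiation genes lay at 20.6 and 958 CPM. Markers of leukocytes (Cd68, 1 of 5 listed) and adipocytes (Fabp4, 1 of 5) reached 5.33 and 1.37 CPM at most, and endothelial markers (2 of 5) summed to at most 2.81 CPM, with Cdh5 and Tek at 0 in some libraries. Epithelial markers (2 of 5) summed to between 2.35 and 54.7 CPM, nearly all Krt14. Fibroblast markers (5 of 6) summed to between 447 and 7191 CPM, most of it from the collagen gene Col3a1 (385 to 5269 CPM). The introduced gene was checked through Srf, which averaged 1128 ± 504 CPM where SRF was introduced and 81.3 ± 13.7 CPM with the empty vector (SD, n = 3 each). In the lines with fusions Srf lay between 70.5 and 279 CPM. SRF-FOXO1 (71.8 to 105 CPM) and SRF-PDGFRB (70.5 and 81.4 CPM) overlapped pMSCV (66.6 to 93.8 CPM). Srf therefore gave no clear sign of the construct in these lines. SRF-ICA1L (121 to 279 CPM) lay wholly above pMSCV. SRF-RELA averaged 125 CPM, but its lowest library (84.96 CPM) lay within the pMSCV range. How far reads of a human or truncated construct count towards the mouse gene was not tested, so the check cannot decide whether a construct was expressed.

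By edgeR without a term for the replicate number, none of the 10 genes was called in any comparison between lines. DESeq2 called Sesn3 and Ccng2 in SRF-FOXO1, and edgeR with the replicate number as a block called Pdk4 and Cited2 in SRF-RELA. Against the same-numbered pMSCV libraries, Pdk4 also lay higher and Cited2 lower in SRF and SRF-ICA1L, without a call in that fit. Cited2 was nearly level in the first pair of SRF. In SRF-FOXO1, Sesn3 averaged 62.0 CPM against 23.0 in pMSCV and 21.8 in SRF. Replicates of the same line also lay far apart, from 7.10 to 67.2 CPM for Pdk4 in pMSCV and from 16.9 to 199 CPM for Irs2 in SRF-PDGFRB. Over all 17 libraries Pdk4 ranged 14.5-fold and Irs2 12.3-fold, and in 4 lines both followed the replicate number. Cited2 was the steadiest member, with a 1.75-fold range.

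**Figure D1:**
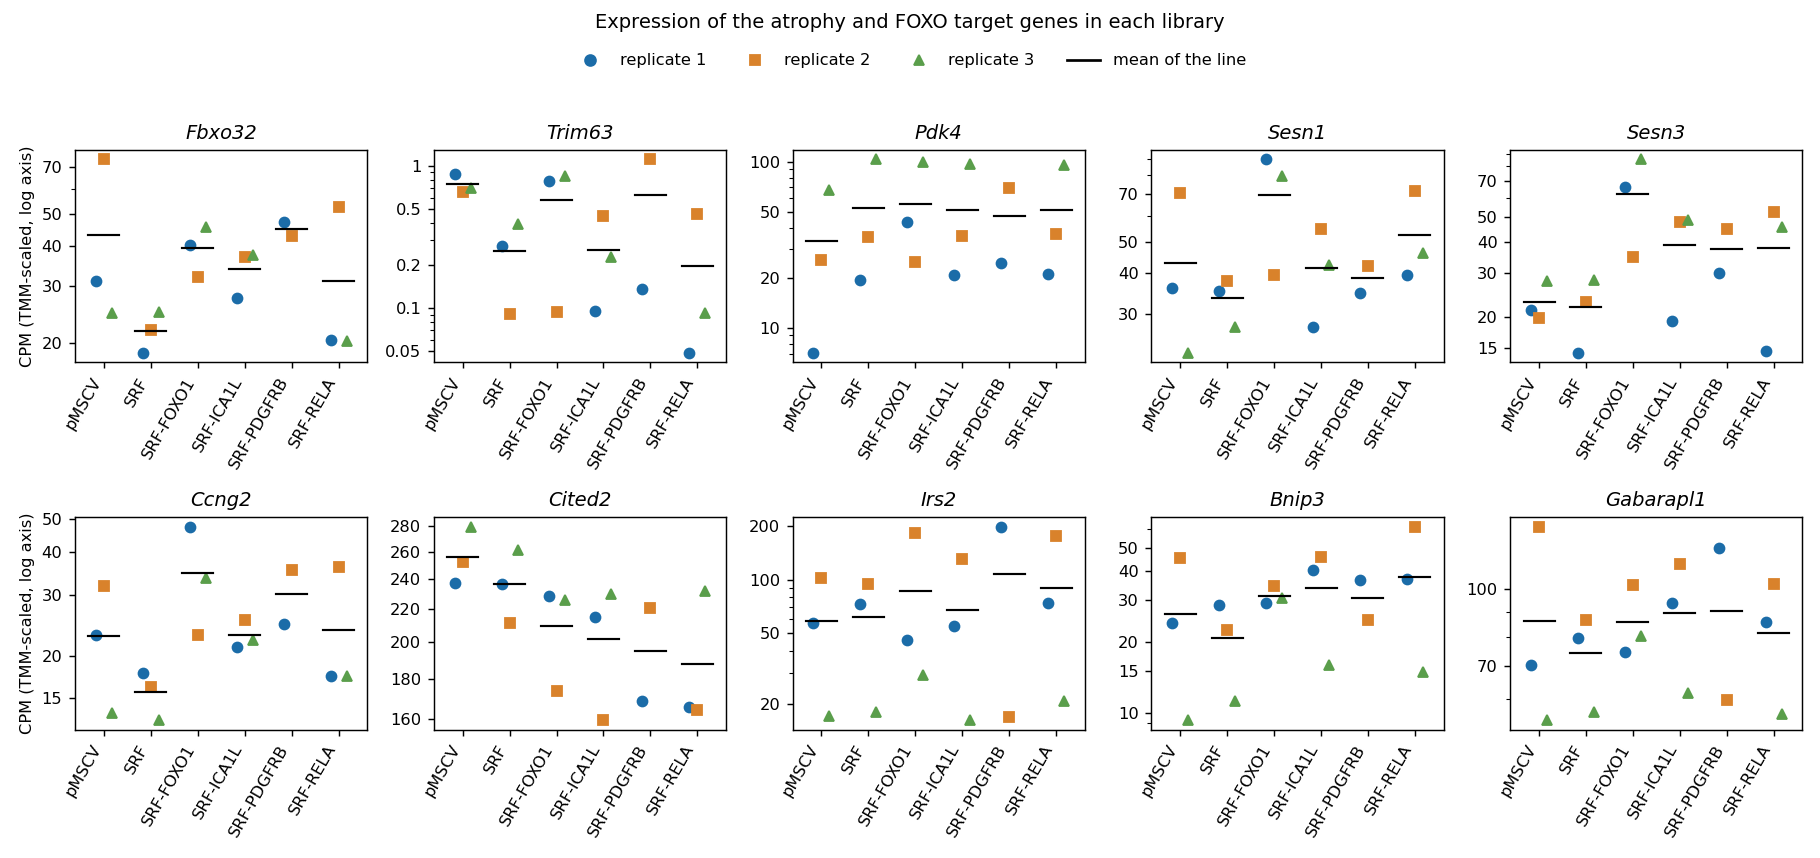
Level of each gene in every library, in TMM-scaled CPM on a log axis that differs between panels; symbols and colours mark the replicate number and bars the mean of each line. Sesn3 is highest in SRF-FOXO1 (34.6 to 85.4 CPM), while Pdk4 and Irs2 spread as widely within a line as between lines.

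Each line was set against pMSCV with edgeR's quasi-likelihood test and Benjamini-Hochberg adjustment over all genes. With SRF, 0 of 10 members passed an adjusted p under 0.05, against 0.00664% of all genes. With SRF-FOXO1 it was 0 of 10 against 0.71%, with SRF-PDGFRB 0 of 10 against 0.0199%, and with SRF-ICA1L and SRF-RELA 0 of 10 against 0% each. At an unadjusted p under 0.05 the test gave 1 member with SRF (Fbxo32, lower), 1 with SRF-FOXO1 (Sesn3, higher), 1 with SRF-RELA (Cited2, lower) and none with SRF-ICA1L or SRF-PDGFRB. The shares of all genes at that level were 3.34%, 20.9%, 8.05%, 6.23% and 7.7% in the same order. DESeq2, the other tool, called Sesn3 in SRF-FOXO1, where it called 9.07% of genes. It called no member in the other lines, where it called between 0.0266% (SRF) and 0.77% (SRF-RELA) of genes.

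The fusion lines were also set against SRF. Since Srf averaged 1128 CPM in the SRF line and 76.0 to 192 CPM in the fusion lines, the level of the construct, the stretch of SRF it holds and the partner cannot be told apart in these comparisons. The comparisons share their control libraries with each other, so they are given side by side and were not correlated. SRF-FOXO1 had 0 of 10 members called against 0.00664% of all genes, SRF-ICA1L 0 of 10 against 0%, SRF-PDGFRB 0 of 10 against 0.0531% and SRF-RELA 0 of 10 against 0.00664%. Unadjusted p-values under 0.05 were found for 3 members in SRF-FOXO1 (19.2% of genes), 2 in SRF-PDGFRB (5.03%) and none in SRF-ICA1L (1.56%) or SRF-RELA (3.21%). DESeq2 called Sesn3 and Ccng2 in SRF-FOXO1, where it called 4.3% of genes. It called no member in SRF-ICA1L (0.0133% of genes), SRF-PDGFRB (0.386%) or SRF-RELA (0.0599%). The fitted direction was mostly upward: 9 of 10 members were above SRF in SRF-FOXO1, 8 each in SRF-PDGFRB and SRF-ICA1L, and 7 in SRF-RELA. As a median over the members, the log2 fold change was 0.72 for SRF-FOXO1, 0.67 for SRF-PDGFRB, 0.29 for SRF-ICA1L and 0.53 for SRF-RELA, where the median of all genes lay between -0.02 and 0.03 in every comparison. Against pMSCV the members' medians were nearer to 0, at 0.41 for SRF-FOXO1, 0.17 for SRF-RELA, 0.15 for SRF-PDGFRB and 0.03 for SRF-ICA1L, and SRF itself stood below pMSCV at -0.27, with 8 of 10 members lower. These counts and medians describe the list and were not tested.

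SRF-FOXO1 was also set against each other fusion, again with 0 of 10 members called, against 0% of genes for SRF-ICA1L, 0.0266% for SRF-PDGFRB and 0% for SRF-RELA. No member reached an unadjusted p under 0.05 there, where 5.94%, 3.87% and 2.51% of genes did. DESeq2 called no member, against 0%, 0.18% and 0% of genes in the same order. The mean of the 4 fusions against SRF gave 0 of 10 against 0.00664% of genes. Fbxo32, Sesn3 and Ccng2 were at an unadjusted p under 0.05 in it, with 9.12% of genes, at log2 fold changes of 0.76 ± 0.34, 0.98 ± 0.40 and 0.81 ± 0.30 (SE, adjusted p = 0.545 each, edgeR). A test for any difference among the 6 lines called 0 of 10 members and 0.0797% of genes. At an unadjusted p under 0.05 it gave 0 members and 8.68% of genes, and DESeq2 called none of the members and 4.22% of genes.

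Separation from pMSCV without overlap was counted in the same way. SRF had 1 member wholly below pMSCV (Trim63, 5.15% of genes), SRF-ICA1L 2 (Trim63 and Cited2, 5.54%) and SRF-RELA the same 2 (5.91%). SRF-FOXO1 had Sesn3 wholly above (11.4% of genes) and Cited2 wholly below (11.6%), and so did SRF-PDGFRB (8.67% and 7.23%).

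**Figure D2:**
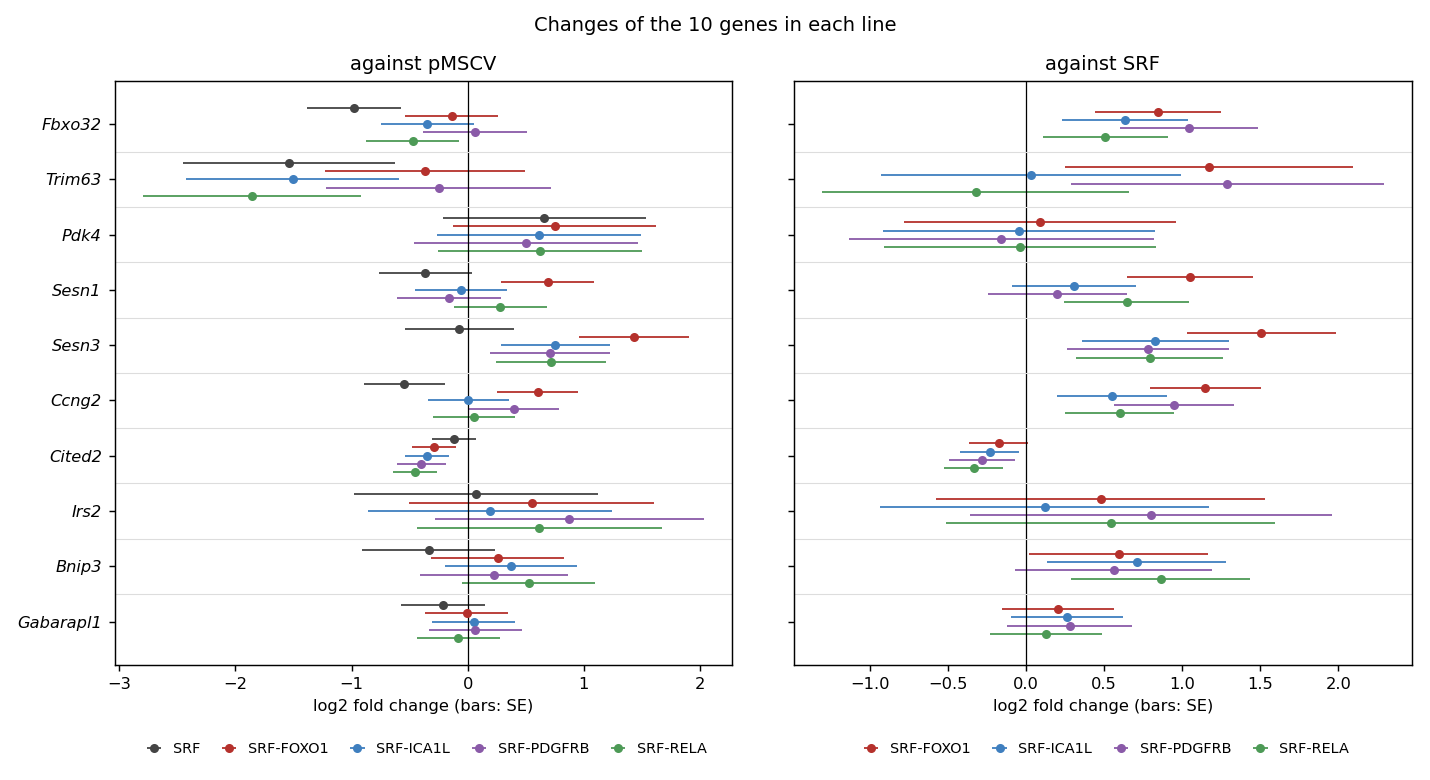
Log2 fold change of each gene in each line against pMSCV (left) and against SRF (right), with bars of 1 standard error; the horizontal scales differ. In SRF-FOXO1 against SRF, Sesn3 lies farthest right (1.51), followed by Trim63 with its wide bar (1.17 ± 0.92), Ccng2 (1.15) and Sesn1 (1.05), and Cited2 lies left of 0 throughout.

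Sesn3 and Sesn1 encode sestrins, stress-induced proteins that restrain the growth kinase complex mTORC1. Sesn3 (ENSMUSG00000032009, chr9:14275067-14333101, plus strand, GRCm38) stood at 66.1, 34.6 and 85.4 CPM in SRF-FOXO1 replicates 1, 2 and 3. It was at 21.3, 19.8 and 27.8 CPM in pMSCV. It was at 14.4, 22.9 and 28.2 CPM in SRF. All SRF-FOXO1 libraries were above all libraries of both controls, with the second replicate closest to them. The log2 fold change was 1.43 ± 0.48 (SE) against pMSCV (adjusted p = 0.119, edgeR quasi-likelihood test) and 1.51 ± 0.48 against SRF (adjusted p = 0.188). With DESeq2 the same comparisons gave 1.44 with an adjusted p of 0.0354 and 1.52 with an adjusted p of 0.0422. In the other fusion lines Sesn3 was at 19.3, 48.0 and 49.0 CPM (SRF-ICA1L), 30.03 and 45.1 CPM (SRF-PDGFRB), and 14.6, 52.8 and 45.9 CPM (SRF-RELA). Replicate 1 was the lowest in each of these lines, and the log2 differences of SRF-FOXO1 from them were 0.68, 0.72 and 0.72 (adjusted p = 0.752, 0.999 and 0.965).

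Sesn1 (ENSMUSG00000038332, chr10:41809935-41908424, plus strand) followed a similar order in SRF-FOXO1, at 89.5, 39.5 and 79.5 CPM. SRF held 35.3, 37.9 and 27.3 CPM, below each of these, and the log2 fold change was 1.05 ± 0.40 (SE, adjusted p = 0.213, edgeR). In pMSCV the libraries lay at 36.0, 70.4 and 22.8 CPM, so they overlapped SRF-FOXO1, and the log2 fold change was 0.69 ± 0.40. In the 3 remaining lines Sesn1 ranged from 27.3 to 71.5 CPM, and SRF-RELA (39.5, 71.5 and 46.3 CPM) also lay wholly above SRF, by 0.65 ± 0.40 on the log2 scale. In pMSCV, SRF-RELA, SRF-ICA1L and SRF the second replicate was the highest for this gene.

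Ccng2 encodes cyclin G2, an unusual cyclin that accompanies cell cycle arrest. It lies at chr5:93267257-93276231 on the plus strand (ENSMUSG00000029385). SRF-FOXO1 had 47.4, 22.9 and 33.7 CPM. SRF had 17.8, 16.2 and 13.0 CPM. No library of one overlapped the other, and the log2 fold change was 1.15 ± 0.35 (SE, adjusted p = 0.185 with edgeR and 0.0460 with DESeq2). Against pMSCV (22.9, 31.9 and 13.6 CPM) it was 0.60 ± 0.35 with overlapping libraries. SRF-PDGFRB at 24.8 and 35.6 CPM and SRF-ICA1L at 21.1, 25.4 and 22.2 CPM also lay wholly above SRF, with log2 fold changes of 0.95 ± 0.39 (adjusted p = 0.910) and 0.55 ± 0.35 (adjusted p = 0.9998).

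In SRF-FOXO1 against SRF, 5 of 10 members (Sesn3, Sesn1, Ccng2, Fbxo32 and Bnip3) had every library above every SRF library, and 17.1% of all genes did so. The counts were 3 in SRF-PDGFRB (13% of genes), 2 in SRF-ICA1L (4.38%) and 1 in SRF-RELA (5.86%). Same-numbered SRF-FOXO1 and SRF libraries deviated together, and a fit of these 6 libraries with the replicate number as a block called 3.07% of genes but 0 of 10 members. The 4 members nearest to the threshold in that fit were Fbxo32 (log2 fold change 0.84 ± 0.16, adjusted p = 0.0501), Ccng2 (1.10 ± 0.22, adjusted p = 0.0515), Sesn3 (1.47 ± 0.33, adjusted p = 0.0646) and Sesn1 (0.99 ± 0.32, adjusted p = 0.121). The summed myoblast markers were lower in these SRF-FOXO1 libraries (259 to 335 CPM) than in those of SRF (824 to 1513 CPM). Fibroblast markers, mostly Col3a1, summed to 3069, 904 and 7191 CPM in SRF-FOXO1 replicates 1, 2 and 3, against 999 to 2009 CPM in SRF. SRF-FOXO1 replicate 2, the library with the lowest Sesn3, Sesn1 and Ccng2 of its line, also had the highest summed p53 targets (1450 CPM against 671 and 694) and glucocorticoid-response genes (1413 CPM against 489 and 686). The part of any of these in the differences was not tested.

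Fbxo32 and Trim63 encode the muscle ubiquitin ligases atrogin-1 and MuRF1, which mark proteins for destruction by the proteasome. Fbxo32 (ENSMUSG00000022358, chr15:58175879-58214932, minus strand) stood at 31.0, 73.9 and 24.7 CPM in pMSCV. It was lower and tighter in SRF, at 18.7, 21.9 and 25.1 CPM. The ranges met only between SRF replicate 3 and pMSCV replicate 3, and the log2 fold change was -0.98 ± 0.40 (SE, adjusted p = 0.990, edgeR). It rested on the high pMSCV library: without pMSCV replicate 2 it was -0.35, and over the 6 fits that left out 1 library of these lines it ranged from -1.26 to -0.35. SRF-FOXO1 had 40.1, 32.0 and 45.8 CPM, SRF-ICA1L 27.5, 36.9 and 37.5 CPM, and SRF-PDGFRB 47.4 and 42.8 CPM. All of these lay above all SRF libraries, with log2 fold changes of 0.84 ± 0.40, 0.63 ± 0.40 and 1.04 ± 0.44 and adjusted p-values of 0.269, 0.9998 and 0.910. In SRF-RELA replicate 2 (52.6 CPM) was far above replicates 1 and 3 (20.5 and 20.3 CPM), the same replicate number as the high pMSCV library. Those 2 high libraries were also the lowest of the 17 in summed proliferation genes, at 1796 and 1224 CPM, and the part of this in Fbxo32 was not tested.

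Trim63 (ENSMUSG00000028834, chr4:134315120-134329629, plus strand) was nearly silent, with 1 to 25 counts per library. The pMSCV libraries had 19, 15 and 15 counts. SRF had 6, 2 and 9 counts, SRF-ICA1L 2, 10 and 5, and SRF-RELA 1, 10 and 2, each line wholly below pMSCV. SRF-FOXO1 had 18, 2 and 19 counts and SRF-PDGFRB 3 and 25, which overlapped pMSCV. Log2 fold changes against pMSCV were -1.54 ± 0.92 in SRF, -1.51 ± 0.92 in SRF-ICA1L and -1.86 ± 0.94 in SRF-RELA (SE, adjusted p = 0.990, 0.870 and 0.644, edgeR). Fits of the 2 lines alone gave the same log2 fold changes with unadjusted p-values under 0.05 in all 3 comparisons, but no call (adjusted p = 0.986, 0.988 and 0.818). The gene is a marker of muscle fibres, and the summed muscle differentiation genes lay at 258 to 471 CPM in pMSCV, 80.7 to 180 CPM in SRF, 57.0 to 427 CPM for SRF-RELA and 94.8 to 161 CPM for SRF-ICA1L, and their part in the Trim63 counts was not tested.

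Cited2, a nuclear coregulator that competes with hypoxia-inducible factor for its coactivators, was the most abundant member per kilobase of exon (87.7 CPM per kb, against 0.152 for Trim63, means over 17 libraries). It lies at chr10:17723218-17725674 on the plus strand (ENSMUSG00000039910). It stood at 237, 252 and 280 CPM in pMSCV. The SRF libraries held 237, 211 and 262 CPM. Levels were 229, 173 and 226 CPM with SRF-FOXO1, 166, 164 and 232 CPM with SRF-RELA, 215, 160 and 230 CPM with SRF-ICA1L, and 169 and 221 CPM with SRF-PDGFRB. Every library with a fusion was below every pMSCV library, as was the case for 1.4% of all genes, and Cited2 was the only member for which this held. The log2 fold changes against pMSCV were small, at -0.29 for SRF-FOXO1, -0.45 for SRF-RELA, -0.35 for SRF-ICA1L and -0.40 for SRF-PDGFRB. The mean of the 4 fusions gave -0.37 ± 0.15 (SE, adjusted p = 0.229, edgeR), with 0 of 10 members and 0% of genes called in that comparison and 2 members (Cited2 and Sesn3) at an unadjusted p under 0.05, against 16% of genes. DESeq2 called none of the 10 there and 4.91% of genes. Against SRF the mean of the fusions differed by -0.26 ± 0.15 with overlapping libraries.

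Same-numbered libraries of pMSCV, SRF-RELA, SRF-ICA1L and SRF deviated together across genes, so these 12 libraries were also fitted with the replicate number as a block. In SRF-RELA against pMSCV this fit called 2 of 10 members and 6.25% of genes, where the fit without the block called none. Pdk4 was higher by 0.81 ± 0.20 on the log2 scale (adjusted p = 0.0354, edgeR) and Cited2 lower at -0.47 ± 0.12 (adjusted p = 0.0499). Pdk4 was above the same-numbered pMSCV library in all 3 pairs and Cited2 below it in all 3. The same held in SRF and in SRF-ICA1L, so neither direction was particular to SRF-RELA. For Cited2 the first SRF pair was nearly level, at 237.1 CPM against 237.3 CPM in pMSCV. In this fit the highest log2 fold change of any member against pMSCV was 0.78 in SRF and 0.79 in SRF-ICA1L. Both calls were fragile: leaving out 1 of the 12 libraries at a time, Pdk4 was called in 6 of 12 fits (adjusted p from 0.0231 to 0.149) and Cited2 in 1 of 12 (0.0436 to 0.198). With TMM factors recomputed within the 12 libraries, Pdk4 alone was called. Other comparisons within these lines had 0 of 10 members called with the block, although it called 2.81% of genes in SRF-ICA1L against pMSCV, 0.0133% in SRF against pMSCV, 0.0929% in SRF-ICA1L against SRF and 0.644% in SRF-RELA against SRF.

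Pdk4 encodes pyruvate dehydrogenase kinase 4, which shuts pyruvate out of the citric acid cycle and so spares glucose. The gene lies at chr6:5483351-5496309 on the minus strand (ENSMUSG00000019577). In replicates 1, 2 and 3 it stood at 7.10, 25.4 and 67.2 CPM in pMSCV. The SRF libraries held 19.4, 35.1 and 103 CPM, those of SRF-RELA 21.1, 36.8 and 95.7 CPM, and those of SRF-ICA1L 20.8, 35.5 and 96.6 CPM. Replicate 1 was lowest and replicate 3 highest in all 4 lines. SRF-FOXO1 had 43.5, 24.8 and 99.5 CPM and SRF-PDGFRB 24.4 and 69.8 CPM, so the highest library was again numbered 3 in SRF-FOXO1. Without the block every line stood above pMSCV by 0.50 to 0.75 on the log2 scale, with standard errors from 0.88 to 0.97 and no call.

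Irs2 encodes insulin receptor substrate 2, an adaptor that carries the insulin signal to phosphoinositide 3-kinase. It lies at chr8:10984681-11008458 on the minus strand (ENSMUSG00000038894). It stood at 56.8, 103 and 17.01 CPM in pMSCV, and the SRF libraries held 73.6, 94.5 and 17.9 CPM. Those of SRF-RELA held 74.3, 176 and 20.7 CPM and those of SRF-ICA1L 55.1, 131 and 16.3 CPM. In each of these lines replicate 2 was the highest and replicate 3 the lowest. SRF-FOXO1 had the same order (46.1, 184 and 29.1 CPM), and the SRF-PDGFRB libraries 1 and 2 lay at 199 and 16.9 CPM. Across genes, SRF-PDGFRB replicate 2 deviated with replicate 3 of the other lines and not with their replicate 2. All 6 lines overlapped, and no fitted log2 fold change between a line and pMSCV exceeded 0.88, with a standard error of 1.16.

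Bnip3 encodes a mitochondrial receptor for autophagy, and Gabarapl1 an ATG8-family protein of the autophagosome membrane. Bnip3 (ENSMUSG00000078566, chr7:138890836-138909519, minus strand) ranged from 9.30 CPM (pMSCV replicate 3) to 61.6 CPM (SRF-RELA replicate 2). SRF-FOXO1 at 29.1, 34.4 and 30.7 CPM lay just above SRF at 28.8, 22.4 and 11.2 CPM, with a log2 fold change of 0.59 ± 0.57 (SE, adjusted p = 0.562, edgeR). Gabarapl1 (ENSMUSG00000030161, chr6:129533160-129542346, plus strand) ranged from 54.4 to 134 CPM, both in pMSCV. Its line means lay between 74.4 CPM (SRF) and 90.4 CPM (SRF-PDGFRB), closer together than the replicates of any line. Fbxo32, Irs2, Bnip3 and Gabarapl1 overlap annotated genes on the opposite strand, and since no source used here says whether counting used the strand, reads of the 2 strands cannot be told apart for these genes.

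The replicate number was then tested itself, in the 12 libraries of pMSCV, SRF-RELA, SRF-ICA1L and SRF with line as a term. By edgeR's quasi-likelihood F-test 9 of 10 members differed between numbers, all except Trim63, and so did 51.4% of all genes. The labels do not say what a number stands for. The 4 lines were taken because their same-numbered libraries deviated together in these same data. A difference by number was thus partly settled by that choice, and its p-values and variance shares are descriptions only. Irs2 fell by 2.79 ± 0.15 (SE) on the log2 scale from replicate 2 to replicate 3 (adjusted p = 6.6e-06), with means of 65.0 ± 10.4, 126 ± 36.7 and 18.0 ± 1.97 CPM in replicates 1, 2 and 3 (SD, n = 4 lines). Pdk4 was higher in replicate 3 than in replicate 1 by 2.48 ± 0.18 (adjusted p = 4.9e-05), with means of 17.1 ± 6.71, 33.2 ± 5.24 and 90.7 ± 16.0 CPM. Bnip3 averaged 32.4, 43.8 and 12.8 CPM, and Gabarapl1 82.5, 109 and 57.1 CPM. Both were lowest in replicate 3 in 4 of 4 lines, by -1.74 ± 0.20 and -0.93 ± 0.13 against replicate 2 (adjusted p = 0.00030 and 0.00070). In replicate 3 Pdk4 thus went up where Irs2 and these autophagy genes went down. From replicate 1 to replicate 2 the means of all of them rose.

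**Figure D3:**
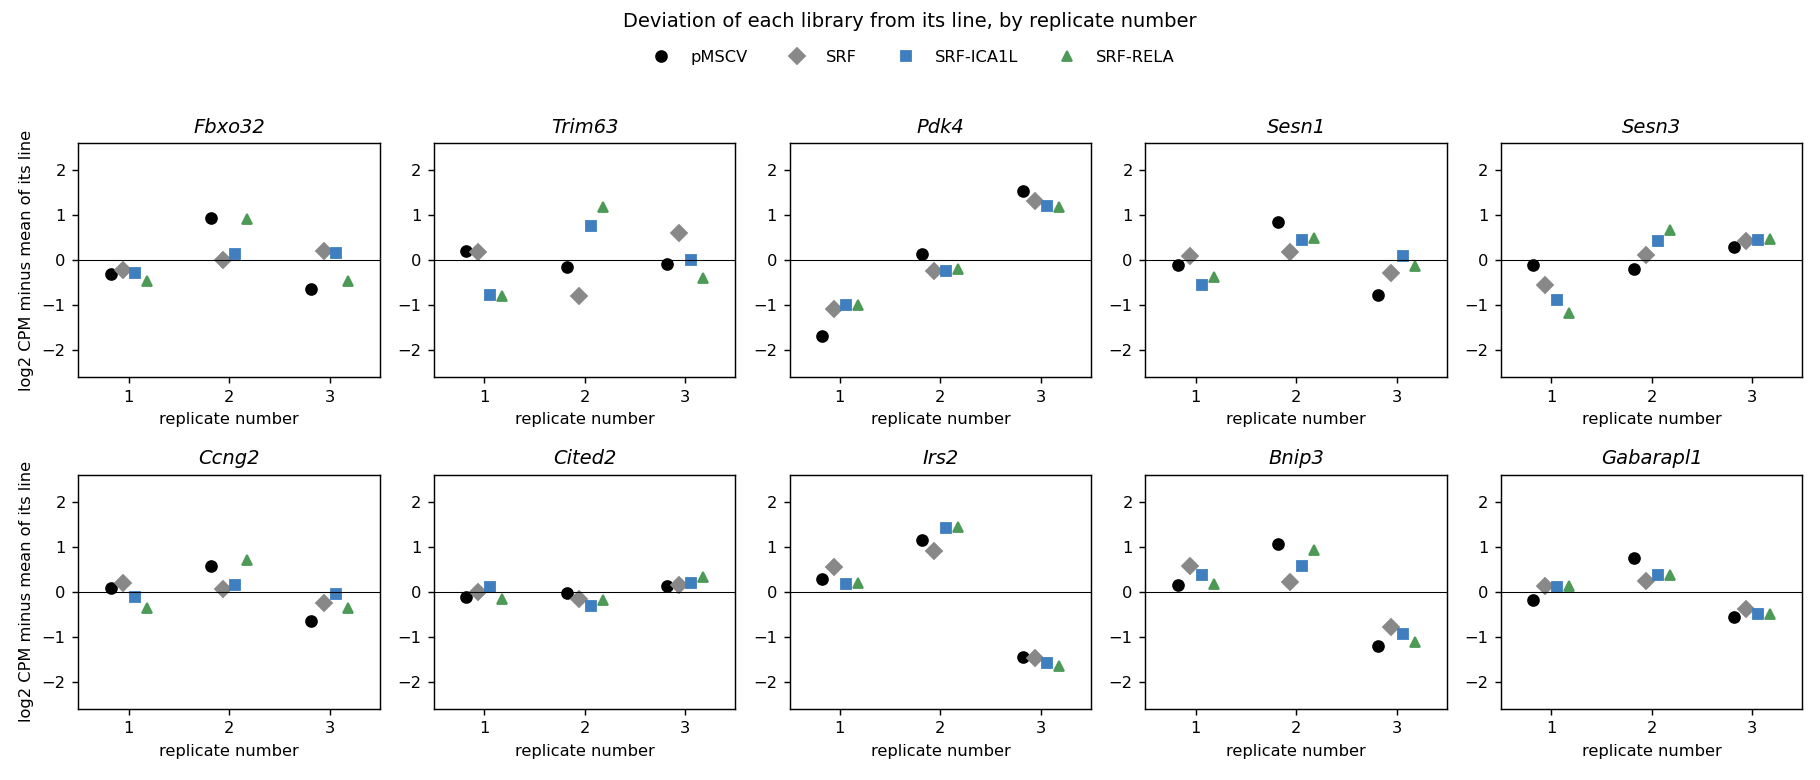
Log2 CPM of each library minus the mean of its line, plotted by replicate number for the 4 lines whose same-numbered libraries deviated together. Irs2, Bnip3 and Gabarapl1 lie below 0 in replicate 3 in all 4 lines, and Pdk4 lies below 0 in replicate 1 and above 0 in replicate 3.

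Replicate 2 against replicate 1 gave 6 members higher and none lower, where 18% of all genes were higher and 16.8% lower. The 6 were Pdk4, Irs2, Sesn3, Fbxo32, Sesn1 and Gabarapl1, at 1.03, 0.94, 0.92, 0.88, 0.73 and 0.40 on the log2 scale. Replicate 3 against replicate 1 gave 2 higher (Pdk4 and Sesn3, the latter by 1.04 ± 0.25) and 3 lower (Irs2, Bnip3 and Gabarapl1), where 8.66% of genes were higher and 9.02% lower. Replicate 3 against replicate 2 gave 2 higher (Pdk4 by 1.44 and Cited2 by 0.37) and 5 lower (Irs2, Bnip3, Gabarapl1, Sesn1 and Ccng2), where 20% of genes were higher and 21.3% lower. Leaving out SRF-RELA replicate 2 reduced the 9 members of the F-test to 5, and adding the 3 SRF-FOXO1 libraries also gave 5. The count over all genes moved too, from 7740 in the full fit to between 5437 and 8356 over the 12 fits without 1 library.

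For each gene the variance of log2 CPM over these 12 libraries was divided between replicate number and line. Replicate number held 95.7% for Irs2, 85.5% for Pdk4, 84.2% for Gabarapl1 and 77.4% for Bnip3, where the median of all genes was 49.6%. For Sesn3, Sesn1, Ccng2, Fbxo32 and Cited2 it held between 34.8% and 53.6%. Line held more than replicate number for 2 members, Cited2 (51.2% against 34.8%) and the weakly expressed Trim63 (55.4% against 5.78%). The median of line over all genes was 19.5%.

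**Figure D4:**
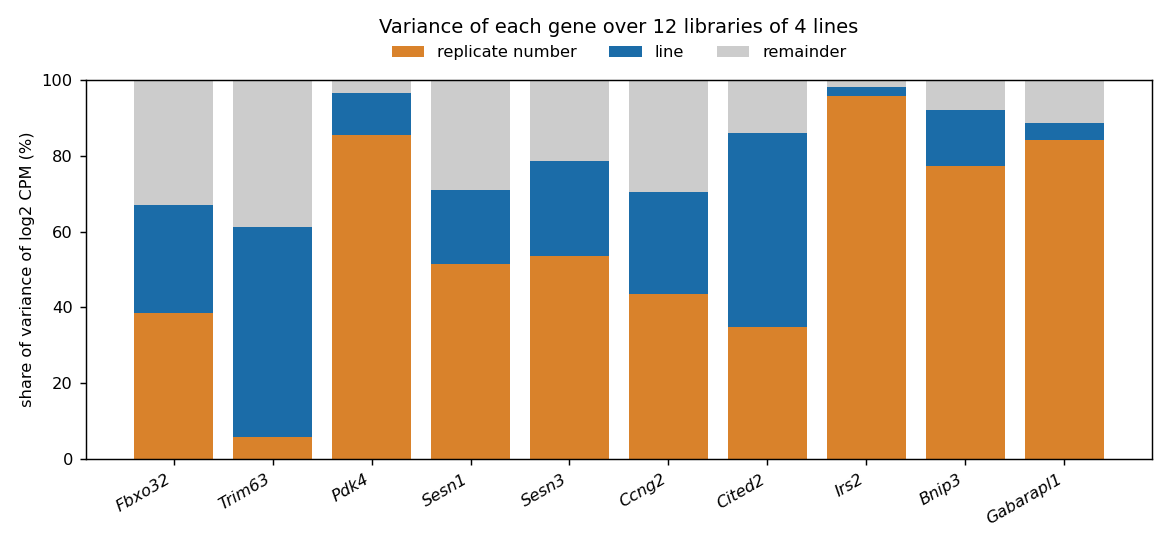
Share of the variance of log2 CPM over 12 libraries (pMSCV, SRF-RELA, SRF-ICA1L and SRF) held by replicate number, by line and by the remainder, in percent. Replicate number takes 77.4% or more for Pdk4, Irs2, Bnip3 and Gabarapl1, and line takes the most for Cited2 and Trim63.

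Other gene groups moved with the replicate number beside the members. All 12 proliferation genes listed differed by number, beside 51.4% of all genes, with summed means of 3188, 2163 and 3915 CPM in replicates 1, 2 and 3. From replicate 2 to replicate 3, 11 of 12 were higher. In that comparison 20% of all genes were higher and 21.3% lower, which also applies to the 2 lists that follow. The hypoxia-response genes summed to 1286, 1355 and 711 CPM, with 8 of 12 lower in replicate 3 than in replicate 2, among them Car9, Ddit4 and Ndrg1 (log2 fold changes of -2.72, -2.37 and -1.63). The glucocorticoid-response genes summed to 1169, 1445 and 691 CPM, with 4 of 9 lower and 1 higher, among the lower Per1, Klf9 and Sgk1 (-2.38, -2.23 and -2.03). Fibroblast markers summed to 1047, 2848 and 2145 CPM and myoblast markers to 915, 957 and 1430 CPM. The part of any of these in the members' shifts was not tested.

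The FOXO genes themselves were measured in every library. Foxo1 averaged 31.4 ± 7.98 CPM with SRF-FOXO1, 20.9 ± 6.79 CPM with pMSCV and 21.5 ± 5.48 CPM with SRF (SD, n = 3 each). Its log2 fold change between SRF-FOXO1 and pMSCV was 0.59 ± 0.28 (SE, adjusted p = 0.243, edgeR). How far reads of the SRF-FOXO1 construct count towards mouse Foxo1 was not tested, so the level of the cells' own gene is not known. Foxo3 ranged from 29.5 to 71.3 CPM, Foxo4 from 18.7 to 36.3 CPM and Foxo6 from 0.674 to 5.86 CPM. Foxo3 in SRF-FOXO1 (47.9 to 56.5 CPM) lay wholly above SRF (29.5 to 40.1 CPM) but overlapped pMSCV (31.0 to 67.8 CPM). Of all genes, 17.1% lay wholly above SRF in SRF-FOXO1. Foxo6 lay at 3.79 to 5.86 CPM in pMSCV and reached at most 2.56 CPM in SRF. In the fusion lines it reached at most 2.67 (SRF-FOXO1), 2.93 (SRF-ICA1L), 2.65 (SRF-RELA) and 4.05 CPM (SRF-PDGFRB). None of the 4 was called between lines. By replicate number Foxo1 and Foxo3 differed (adjusted p = 0.0061 and 0.0012), and both were higher in replicate 2 than in replicate 1 (0.61 and 0.73 on the log2 scale) and lower in replicate 3 than in replicate 2 (-0.45 and -0.87).

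Genes that work beside the members were taken from further lists, which are described by counts and medians only. Of 15 further FOXO targets measured, 0 were called between any line and pMSCV or SRF by edgeR without the block. At an unadjusted p under 0.05, SRF-FOXO1 had 6 of them against each control, beside 20.9% of all genes against pMSCV and 19.2% against SRF. DESeq2 called 4 against pMSCV (3 lower, 1 higher) beside 9.07% of genes, and 3 against SRF, all higher, beside 4.3%. Their median log2 fold change against pMSCV was near 0 for SRF-FOXO1 (-0.01) and SRF-PDGFRB (-0.06) and lower for SRF (-0.38), SRF-RELA (-0.45) and SRF-ICA1L (-0.43). With the replicate block, Eif4ebp1, a brake on translation, was lower in SRF-ICA1L (-0.60 ± 0.11, adjusted p = 0.0183, edgeR) and in SRF-RELA (-0.59 ± 0.11, adjusted p = 0.0110) than in pMSCV. The same fit called the transcription factor Klf2 lower in SRF-ICA1L (-1.10 ± 0.21, adjusted p = 0.0261) and the pocket protein gene Rbl2 higher in SRF-RELA (0.59 ± 0.15, adjusted p = 0.0486). By replicate number 12 of the 15 differed, beside 51.4% of all genes. Replicate 3 against replicate 2 gave 10 lower and none higher, beside 21.3% and 20% of all genes. Ppargc1a, Depp1 and Pik3ip1 were lowest (-2.49, -2.48 and -2.11).

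Among 13 measured family relatives of the members none was called between lines by edgeR without the block. SRF-FOXO1 had 2 at an unadjusted p under 0.05 against each control, below the shares of all genes just given, and DESeq2 called 2 lower against pMSCV, 1 lower against SRF, and 1 lower in each of SRF-ICA1L and SRF-RELA against pMSCV (Trim54). With the block, Trim54, a sister of Trim63 found in the sarcomere, was lower than in pMSCV in SRF-ICA1L (-2.14 ± 0.34, adjusted p = 0.0130, edgeR) and SRF-RELA (-2.22 ± 0.34, adjusted p = 0.0058). Trim55, another sister, was lower in SRF-RELA (-1.64 ± 0.31, adjusted p = 0.0140). In these lines the 6 myoblast markers were lower too, 5 of 6 called in SRF-ICA1L and 6 of 6 in SRF-RELA, beside 2.81% and 6.25% of all genes. Their part was not tested. By replicate number 10 of the 13 differed, beside the same 51.4%, and Pdk1, Pdk2 and Sesn2 were lower in replicate 3 than in replicate 2 (-1.45, -1.43 and -1.19), so Pdk1 and Pdk2 shifted against Pdk4.

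Of 16 ubiquitin and proteasome genes tied to atrophy, 16 autophagy and lysosome genes and 13 genes of the insulin and AKT pathway, 0 were called between any line and pMSCV or SRF by edgeR without the block. In SRF-FOXO1 against SRF, 3, 3 and 4 of them were at an unadjusted p under 0.05, beside 19.2% of all genes, and DESeq2 called 1, Pik3r1, a regulatory subunit of phosphoinositide 3-kinase, which was higher (1.48 ± 0.47, adjusted p = 0.0414). With the block the lysosomal protease gene Ctsl was lower than in pMSCV in SRF-ICA1L (-0.54 ± 0.12, adjusted p = 0.0412, edgeR) and SRF-RELA (-0.67 ± 0.12, adjusted p = 0.0103). Against SRF, the median of the autophagy list was 0.31 for SRF-FOXO1 and 0.30 for SRF-PDGFRB, with 11 and 13 of 16 genes higher. By replicate number 10, 11 and 5 genes of the 3 lists differed, beside 51.4% of all genes. Replicate 3 against replicate 2 gave 9 autophagy genes lower and none higher, beside 21.3% and 20% of all genes. Among the lower were Map1lc3a and Sqstm1 (-1.20 and -1.03). Of 9 glucocorticoid-response genes measured, the receptor gene Nr3c1 was higher in SRF-FOXO1 than in pMSCV (1.21 ± 0.21, adjusted p = 0.0336, edgeR), where 0.71% of all genes were called. With the block it was also higher in SRF-ICA1L (0.57 ± 0.12, adjusted p = 0.0347) and SRF-RELA (0.66 ± 0.12, adjusted p = 0.0116), beside 2.81% and 6.25% of genes. The 9 genes together did not rise in SRF-FOXO1, with a median sum of 686 CPM (489 to 1413) against 996 CPM (671 to 1645) in pMSCV.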

How the data were processed

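RNA was sequenced from 17 libraries of C2C12 lines, grouped and numbered by their titles. The authors deposited raw counts per gene in 1 table. Per the submitters' processing notes, FastQC 0.11.8, Trimmomatic 0.39, HISAT2 2.12.1 and featureCounts (Subread 2.0.0) were used with GRCm38. The annotation and strand setting are not given in the sources used here. The table held only genes with 10 or more counts in 3 or more libraries. The 1531 rows with no symbol stayed in the tests, and reads shared by related genes may have been split.

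From the counts, edgeR 4.0.16 (limma 3.58.1, R 4.3.3) fitted all 17 libraries by line with TMM factors (0.957 to 1.04) and robust quasi-likelihood tests. The Benjamini-Hochberg adjustment ran over 15062 genes in each of 14 comparisons between lines, and calls were made at 0.05. Low-count filtering removed 0 genes. The biological coefficient of variation was 36.5%. DESeq2 1.42.0 was the other tool. Log2 CPM used a prior count of 2. Standard errors given with edgeR were derived as the log2 fold change, without its sign, divided by the square root of the test's F. Scripts were tested on simulated data. Library pairs within a line differed by 29 to 186 in chi-square per degree of freedom, so none was a duplicate.

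Deviations of same-numbered libraries from their line means correlated at 0.392 to 0.789 across genes among pMSCV, SRF-RELA, SRF-ICA1L and SRF (different numbers, 0.114 at most) and at 0.22 to 0.33 between SRF-FOXO1 and SRF. These pairs were fitted with the number as a block, with the TMM factors of the whole table. SRF-FOXO1 did not pair with pMSCV (-0.195 to 0.17). SRF-PDGFRB replicate 2 correlated at 0.249 to 0.637 with replicate 3 of the other lines and at -0.509 to -0.0857 with their replicate 2. As that line has 2 libraries, its replicate 1 mirrors these values. The pairing comes from these correlations, not from the labels.

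The members, the 17 other lists and the tests were chosen with earlier results of these data known. All members were named. Of other lists, genes called without the block or with it in 12 libraries were named, at most 3 a comparison by size of change. Positions and exon lengths come from GENCODE M21 (GRCm38), and sequences from RefSeq.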

Additional observations from a re-analysis of the deposited data

How the results depend on the processing

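Without a block, the counts of 0 members called in 14 comparisons between lines and in the test across all 6 lines stayed at 0 under the other filters, scalings and subsets of lines tried and in 17 fits that each left out 1 library. DESeq2 called 1 member in SRF-FOXO1 against pMSCV and 2 in SRF-FOXO1 against SRF, with 1363 and 597 genes in all, against 107 and 1 by edgeR. Leaving out 1 library moved the 107 to between 0 and 626. In the 6 libraries of SRF-FOXO1 and SRF the block called 463 genes, and 243 with TMM recomputed. With the replicate number as a block in all 17 libraries, 1 member (Sesn3, log2 fold change 1.45, adjusted p = 0.0446, edgeR) was called in SRF-FOXO1 against pMSCV, a comparison whose numbers do not pair, and 1021 genes against 107 without the block. That fit also put SRF-PDGFRB replicate 2 in a block with the other replicates 2, from which it deviated. Leaving out libraries of SRF-FOXO1 and pMSCV in turn, a setting added after seeing the data, gave 0 to 4 members. The 4 (Ccng2, Pdk4, Sesn1 and Sesn3) came without SRF-FOXO1 replicate 2. The block in 12 libraries gave 2 members in SRF-RELA against pMSCV (941 genes against 0), 1 with TMM recomputed and 0 to 4 without 1 library, 4 without SRF replicate 2, and 0 to 1 in SRF-ICA1L against pMSCV, where Pdk4 was called without pMSCV replicate 2. The TMM and library settings of this fit were also added after seeing the data. The block changed no other call among the members. The count for replicate number was 9, 5 with 15 libraries, and 5 to 9 without 1 library (5437 to 8356 of all genes), 5 without SRF-RELA replicate 2. No log2 fold change of a member at an unadjusted p under 0.05 in the fit without a block reversed its sign. The other log2 fold changes were not checked in this way. The cause of these changes was not tested. Trim63 had no value under the filter of 50 counts. With 2 or 3 libraries a line, the spread between replicates limited the tests, and for Trim63 its low counts did too.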

Other observations

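For each gene, the pattern over the 17 libraries was compared with that of the 10389 genes averaging at least 5 CPM, by Pearson's r of log2 CPM. These are descriptions over libraries that share lines and replicate numbers. Irs2 was most like Zfp36 (r = 0.981), which encodes an RNA-binding protein that shortens the life of messenger RNAs, and Ccnl1 (0.976). Bnip3 was most like Selenok (0.972) and Dnase2a (0.942), and Gabarapl1 most like Slc49a4 (0.945) and Nr4a3 (0.929). Pdk4 was most like Ttc33 (0.931) and Nsd1 (0.920), Sesn1 most like Ephb6 (0.971) and Tgm5 (0.959), and Sesn3 most like Fam20b (0.927) and Tnrc6c (0.914). Fbxo32 was most like Ezh1 (0.914) and Paxx (0.907), Ccng2 most like Zfp579 (0.903) and Adh1 (0.887), Cited2 most like Ccl25 (0.881) and Snhg20 (0.868), and Trim63, at few counts, most like Rhobtb1 (0.881) and Tcf12 (0.850). Among the members themselves, Irs2 and Gabarapl1 had the highest r (0.897), followed by Bnip3 with Gabarapl1 (0.862) and Sesn1 with Ccng2 (0.825), and the lowest was that of Cited2 and Irs2 (-0.730).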
